A study of Homo sapiens with 30 samples.

Results

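FOXA1 knockdown was examined in LNCaP, an established human prostate cancer cell line that keeps a luminal epithelial character and grows in response to androgen. The comparison sets 3 samples infected with an shRNA against FOXA1 (shFOXA1) beside 3 samples infected with the pLKO control vector, each taken 5 days after infection, in cells kept in RPMI medium with serum and antibiotics and no stated hormone treatment. These are 6 of the 30 samples of the series. A gene entered the comparison if 3 or more of the 6 samples reached a value of 1, which held for 12115 of the 26443 genes with values. The other groups set beside it are shUSP7 and shBUB3 of the same infection experiment (3 samples each, also at day 5) and a second FOXA1 knockdown, shFoxA1 in the pGIPZ vector against a pGIPZ control (3 samples each, day 5). USP7 is a deubiquitinase and BUB3 a spindle checkpoint protein, and by its title the series concerns how FOXA1 protein stability is set. The labels name the FOXA1 shRNA without its sequence, so effects of the hairpin on other transcripts and effects of losing FOXA1 cannot be told apart within this comparison. Whether the replicates are separate infections is not in the labels, and the p-values describe the spread among these libraries, which may be technical.

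FOXA1 is a pioneer transcription factor: its forkhead domain binds DNA in closed chromatin and makes enhancers accessible to other factors. In prostate cells it opens sites for nuclear receptors and works beside luminal factors such as HOXB13 and GATA2. Androgens drive secretory genes, metabolism and growth of these cells, and coregulators of the NCOA, NCOR and TLE families raise or repress transcription by nuclear receptors.

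The targeted RNA was lower in every knockdown sample. FOXA1 (chromosome 14, 37589984 to 37596059, GRCh38, a protein-coding gene) measured 115.8, 115.6 and 115.9 FPKM in the controls and 58.3, 60.9 and 57.7 FPKM after shFOXA1. The difference was -0.96 ± 0.0339 on the log2 scale (SE, limma adjusted p = 6.8e-08), and 0.509 of the control level remained. No sample of one group overlapped the other, and the same holds for every gene below whose 6 values are given. FPKM, the deposited unit, relates the fragments of a gene to its length and to the depth of the library. Fold changes below, given in parentheses after a gene's name, are differences of log2(FPKM + 1), which understates changes of genes near or under 1 FPKM, and a gene is called where limma's Benjamini-Hochberg adjusted p was under 0.05.

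The 6 samples were tightly grouped. Across the genes tested, log2 values correlated at r of 0.993 to 0.995 within groups and 0.895 to 0.900 between them, and genes are not independent replicates. Between 11582 and 11879 genes reached 1 FPKM per sample. Depth relative to the first control sample came out at 0.900 to 1.15. It was inferred from the commonest ratio among low FPKM values, since the files give no read totals. The values of a column summed to 275695 to 286460 FPKM in the controls and 235344 to 244645 FPKM after shFOXA1. The fall of the mean sum, 41216 FPKM, was made up to 54.2% by cytosolic ribosomal protein genes. Median-ratio scaling, which sets the typical gene at 1 level in all samples, was therefore run beside the deposited scale.

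Loss of FOXA1 RNA was accompanied by differences in most genes tested. limma called 9554 of 12115 genes (78.9%), 3499 higher (28.9%) and 6055 lower (50.0%). At least 2-fold differences were fewer, with 531 genes higher (4.38%) and 1109 lower (9.15%). The groups did not overlap for 9744 genes (80.4%). The median over all genes tested was -0.15. After median-ratio scaling it was -0.02, a shift of 0.14, and the calls split into 4529 higher and 4982 lower, with 702 and 849 genes past 2-fold. On both scales 8481 genes were called with the same sign and 0 with the opposite sign, and 1380 of the 1640 genes past 2-fold stayed past it. Since so many genes pass the test, a call by itself says little about a gene, and the list medians below are to be read against -0.15 and their counts against the 28.9% of all genes called higher and the 50.0% called lower. Of the genes tested, 258 passed the filter only through shFOXA1 and 503 only through the control, so these had to differ and their calls lend no support to a direction. Of the genes named below, the first kind holds ACHE, BARX2, CDKN1C, CDKN2B, HSD17B2, HSD3B1, IRS1, KLF5, KRT15, LCN2, LTBP1, NFKBIZ, OASL and SGK1. The second kind holds BUB1, CDC45, CENPA, DDC, HIST1H3A, HPGD, INPP4B, MSMB, NDC80, OAS3, RLN1, RLN2, UGT2B10, UGT2B15, UGT2B17, VIM and VWF.

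**Figure D1:**
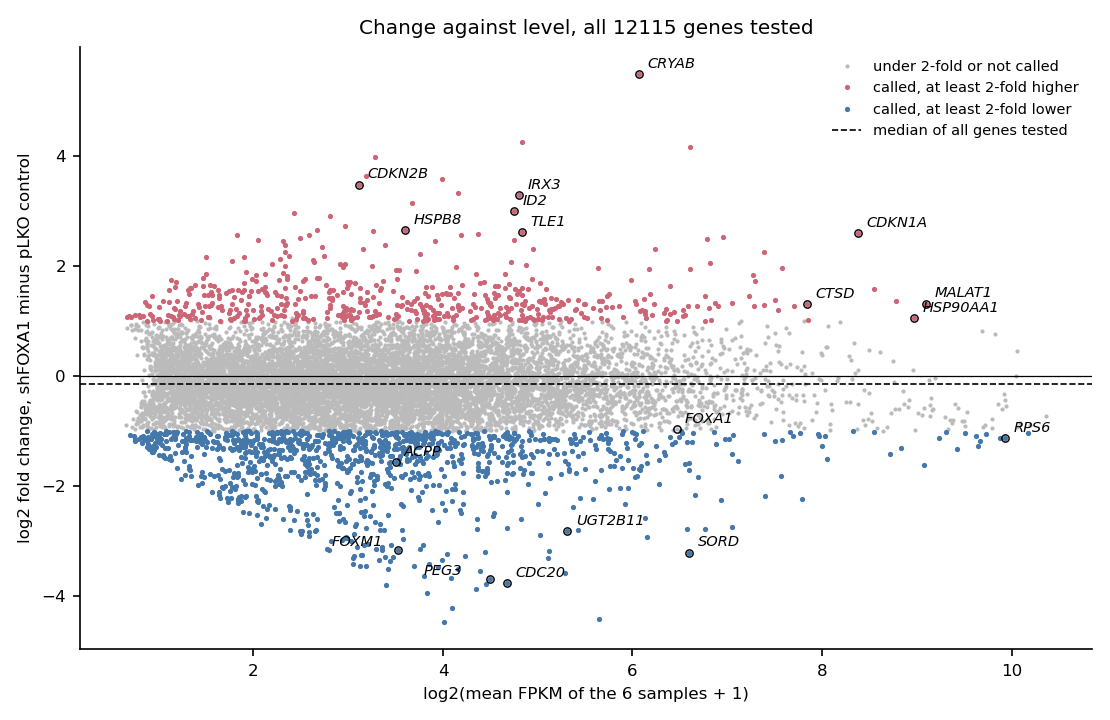
Each point is 1 of 12115 genes, with log2(mean FPKM of the 6 samples + 1) on the x axis and the log2 fold change of shFOXA1 minus pLKO control on the y axis; red and blue mark genes called and at least 2-fold higher (531) or lower (1109), and the dashed line is the median of all genes, -0.15. Among abundant genes CDKN1A lies at 2.60 and SORD at -3.21, further from the median than FOXA1 itself at -0.96.

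Transcription factors of the luminal programme moved in both directions. SPDEF, an ETS factor of secretory epithelia, measured 82.3, 87.7 and 80.7 FPKM in the controls and 26.1, 29.1 and 23.9 FPKM after shFOXA1, with the controls far above the knockdown samples (-1.63 ± 0.0682 SE, limma adjusted p = 1.7e-07). HOXB13 (-0.65) and the hormone-responsive factor CREB3L4 (-1.33) were lower too. GRHL2, which maintains epithelial junction genes, measured 30.6, 28.2 and 29.1 FPKM in the controls and 52.4, 54.6 and 54.7 FPKM after shFOXA1, with every knockdown sample above every control (0.86 ± 0.0406 SE, limma adjusted p = 3.3e-07). SOX9, a factor of progenitor-like epithelial states, rose from 1.40 ± 0.252 to 9.05 ± 0.271 FPKM (SD, n = 3 per group), and GATA2 (0.37), KLF5 (0.90), TBX3 (1.09) and ELF3 (1.48) rose by smaller amounts. The homeobox gene BARX2 (3.98) was under 1 FPKM in all 3 controls. Of the 25 luminal factors tested, 14 were higher and 10 lower (4 at least 2-fold higher and 4 at least 2-fold lower), with a median of 0.24, or 0.06 over the 22 members that did not pass the filter through 1 group alone.

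Other forkhead genes moved in both directions as well. Of the 14 tested, 6 were higher and 8 lower, with a median of -0.58, and 13 others of the list lay below the filter, FOXA2 and FOXA3 among them. FOXM1, the forkhead factor of mitotic entry, fell furthest (-3.16), followed by FOXJ2 (-1.03), FOXP1 (-0.81), FOXK1 (-0.71) and FOXO4 (-0.69). FOXN3 (1.29) and FOXO3 (0.68), which acts when growth factors are withdrawn, rose.

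Among coregulators, TLE1 stood apart. TLE proteins are Groucho corepressors, and TLE1 measured 7.36, 7.29 and 6.35 FPKM in the controls and 46.4, 47.9 and 49.9 FPKM after shFOXA1, 6.87 times the control mean (2.62 ± 0.0575 SE, limma adjusted p = 8.7e-09). The samples did not overlap, and the related TLE3 (-1.03), AES (-1.26) and TLE6 (-0.68) were lower. MED1, the Mediator subunit that contacts nuclear receptors, fell (-1.52), and the histone demethylase KDM1A fell as well (-0.78). PIAS1 (0.99) and the methyltransferase KMT2C (1.05) rose. Over the list, 10 were higher and 9 lower of 28, and its median of 0.02 turned to -0.02 without the third shFOXA1 sample.

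**Figure D2:**
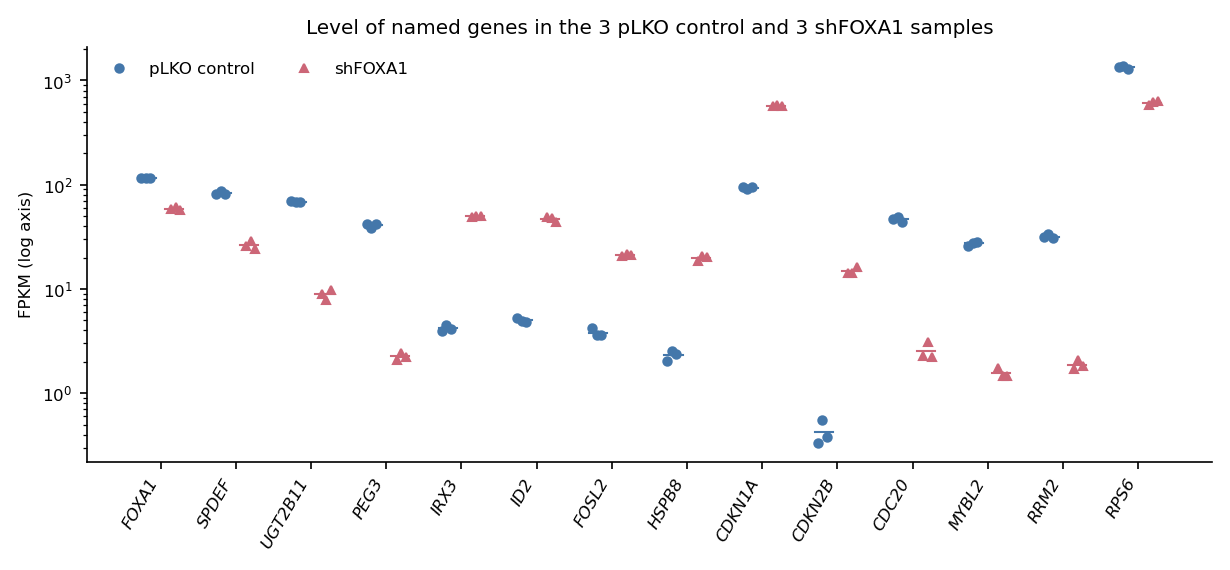
FPKM on a log axis for 14 genes, with circles for the 3 pLKO control samples, triangles for the 3 shFOXA1 samples and short lines for group means. The groups are separate for each gene shown: FOXA1, SPDEF, UGT2B11, PEG3, CDC20, MYBL2, RRM2 and RPS6 are lower after shFOXA1 and IRX3, ID2, FOSL2, HSPB8, CDKN1A and CDKN2B higher.

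Androgen-induced genes did not fall as one group. Of 53 tested, 15 were higher and 34 lower (5 at least 2-fold higher and 19 at least 2-fold lower), and the list median was -0.38 (-0.27 after median-ratio scaling). Without the 4 members that passed the filter through 1 group alone, 14 were higher and 31 lower of 49 (16 at least 2-fold lower, median -0.36). SORD, the sorbitol dehydrogenase abundant in prostate epithelium, measured 178, 175 and 168 FPKM in the controls and 17.0, 19.1 and 17.6 FPKM after shFOXA1. It was among the abundant genes with the largest falls, -3.21 ± 0.0486 on the log2 scale (SE, limma adjusted p = 2.4e-09), with no overlap. SLC45A3 fell furthest of the list (-4.41). HPGD (-2.36), which breaks down prostaglandins, the phosphatase INPP4B (-1.81), the chromatin ATPase ATAD2 (-2.44) and GNMT (-1.69), a glycine methyltransferase, fell more than 2-fold. Of these, HPGD and INPP4B passed the filter only through the control. The kinase gene SGK1 measured 0.611, 0.659 and 0.773 FPKM in the controls and 8.99, 8.31 and 8.43 FPKM after shFOXA1 and moved the other way (2.51), having passed the filter only through shFOXA1. KLK4 (1.28), MAF (1.41), MICAL1 (1.42) and PTGER4 (1.03) were also higher, as was FKBP5 (0.52), a chaperone of steroid receptors. In the list of androgen-repressed and glucocorticoid receptor genes, 8 were higher and 7 lower of 16, with a median of 0.17. At least 2-fold differences were 3 higher and 6 lower. Without the 4 members that passed the filter through 1 group alone, 7 were higher and 4 lower of 12 (median 0.46). Its members split: SERPINI1 (2.00), MAOA (1.33) and PER1 (0.83) were higher, and BCHE (-1.16) and TSC22D3 (-1.47), the GILZ gene, lower. The largest falls of the list were UGT2B17, UGT2B15, DDC and CDKN3, whose values are given below.

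The UGT2B enzymes, which attach glucuronic acid to androgens and so inactivate them, fell together on chromosome 4. In 68537184 to 69295050 (GRCh38), 5 neighbouring genes that passed the filter were each called and at least 2-fold lower: UGT2B17 (-4.47), UGT2B15 (-3.94), UGT2B10 (-1.81), UGT2B11 (-2.82) and UGT2B28 (-2.65). UGT2B17, UGT2B15 and UGT2B10 reached 1 FPKM only in the controls, so the filter fixed their direction. UGT2B11, the most abundant, measured 69.7, 67.8 and 68.4 FPKM in the controls and 8.95, 7.91 and 9.79 FPKM after shFOXA1. UGT2B28 measured 16.4, 17.0 and 14.2 FPKM in the controls and 1.63, 1.81 and 1.60 FPKM after shFOXA1. The knockdown samples of both lay far below the controls. UGT2B10 went from 2.78 ± 0.117 to 0.0791 ± 0.0260 FPKM (SD, n = 3). These genes are near-identical copies, and reads may have been split among them in a way the sources used here do not give. Elsewhere in androgen metabolism the changes were smaller: HSD3B1 (1.71), HSD11B2 (1.28) and HSD17B2 (0.90) rose, and SRD5A1 (-0.37), which makes dihydrotestosterone, fell. In all, 3 were higher and 15 lower of 19 tested, with a median of -0.38. Without the 5 members that passed the filter through 1 group alone, 1 was higher and 12 lower of 14 (median -0.37). Of 2 members of the cluster, the 250 bases before the RefSeq start (GRCh38.p14) are shown because both genes fell while only one of them carries the letters searched. Capitals mark TGTTTAC, letters bound by forkhead proteins, searched on both strands.
UGT2B15, chr4:68670653-68670902, minus strand: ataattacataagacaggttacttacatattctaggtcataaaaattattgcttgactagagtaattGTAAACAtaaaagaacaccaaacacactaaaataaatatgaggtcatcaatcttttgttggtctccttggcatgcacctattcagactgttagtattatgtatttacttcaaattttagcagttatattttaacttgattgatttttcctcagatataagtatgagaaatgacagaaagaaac
UGT2B11, chr4:69214749-69214998, minus strand: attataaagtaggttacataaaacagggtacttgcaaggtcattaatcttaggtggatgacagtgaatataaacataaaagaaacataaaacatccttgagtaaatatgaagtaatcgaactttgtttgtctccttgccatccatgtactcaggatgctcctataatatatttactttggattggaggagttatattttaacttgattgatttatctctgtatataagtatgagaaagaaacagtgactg
UGT2B15 held 1 match, at -183 bases from the start, and UGT2B11 held no exact match in this window. The UGT2B11 bases do hold ataaaca, 1 base different from the GTAAACA marked in UGT2B15, and such near matches were not searched. TGTTTAC occurred in 3.41% of all 27305 RefSeq promoters (250 bases before to 50 after the start), in 2.24% of the 9435 tested genes with an entry, in 3.27% of the genes 2-fold higher and in 1.81% of those 2-fold lower. TGTTTGC, another forkhead form, occurred in 2.63% of promoters of tested genes, 3.54% of those 2-fold higher and 2.15% of those 2-fold lower. The RefSeq starts of both UGT2B genes differ from the GENCODE 29 transcript starts, and FOXA1 is known to bind mostly at enhancers, which these windows do not cover.

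Secreted and surface products of the prostate included more members lower than higher. Of 20 tested, 6 were higher and 14 lower (3 at least 2-fold higher and 6 at least 2-fold lower), beside 50.0% of all genes called lower. The median was -0.59 (-0.47 after median-ratio scaling). ACPP, which encodes prostatic acid phosphatase, measured 16.0, 16.1 and 15.6 FPKM in the controls and 4.18, 5.35 and 4.70 FPKM after shFOXA1, a change of -1.56 ± 0.0714 on the log2 scale (SE, limma adjusted p = 2.7e-07) with no overlap. SPON2 (-1.42), TMEFF2 (-1.35), MSMB (-1.32), which encodes a seminal plasma protein, and FOLH1 (-1.05), which encodes prostate-specific membrane antigen, fell too. CLU, a secreted chaperone also called clusterin, measured 4.46, 3.98 and 4.37 FPKM in the controls and 28.2, 30.1 and 32.7 FPKM after shFOXA1 and rose (2.57 ± 0.0621 SE, limma adjusted p = 1.2e-08), and the siderophore-binding LCN2 (1.75) was higher. RLN1 and RLN2 lie side by side on chromosome 9 and encode relaxin hormones. RLN1 went from 6.34 ± 0.827 to 0.141 ± 0.0967 FPKM (SD, n = 3 per group; -2.68), and RLN2 fell by 1.07 on the log2 scale. They are close copies of each other, which may share reads.

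Genes that rose included several developmental regulators. IRX3 (chromosome 16, 54283304 to 54286763) and IRX5 (same chromosome, 54930862 to 54934485) are Iroquois homeobox genes of 1 cluster. IRX3 measured 3.98, 4.48 and 4.14 FPKM in the controls and 49.5, 49.9 and 49.6 FPKM after shFOXA1, 11.8 times the control mean (3.29 ± 0.0441 SE, limma adjusted p = 2.4e-09). IRX5 followed in the same samples, from 1.40 ± 0.0974 to 9.96 ± 0.644 FPKM (SD, n = 3 per group; 2.19). ID2, a helix-loop-helix protein that blocks differentiation factors, measured 5.30, 4.88 and 4.84 FPKM in the controls and 48.8, 47.8 and 43.9 FPKM after shFOXA1 (2.99 ± 0.0525 SE, limma adjusted p = 4.1e-09), and ID1 rose beside it (2.47), with no overlap for either. NPPC, which encodes the C-type natriuretic peptide, went from 2.25 ± 0.492 to 31.5 ± 3.01 FPKM. ACHE (acetylcholinesterase, 2.91), CYP4F8 (3.15), a hydroxylase of seminal vesicle prostaglandins, and the cytoskeletal ENC1 (2.39) were also among the large rises.

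The signalling lists around these genes were mixed. In the TGF-beta, BMP and ID list, 14 were higher and 9 lower of 29 (median 0.06), led by the ID genes, the latent TGF-beta binding protein LTBP1 (1.33) and the inhibitory SMAD6 (1.07), with the ligand INHBB lowest (-1.12). Notch and HES genes gave 7 higher and 11 lower of 19 (median -0.17). The ligand JAG1 (1.52), the receptor NOTCH1 (1.09) and the target HES1 (1.11) rose together, whereas HES6, a HES family member that opposes HES1, measured 74.4, 79.9 and 80.6 FPKM in the controls and 15.2, 17.1 and 14.9 FPKM after shFOXA1 and fell (-2.24 ± 0.0578 SE, limma adjusted p = 1.7e-08). Among ERBB, ETS and MAPK feedback genes, 7 were higher and 5 lower of 14 (median 0.15): the ERK phosphatases DUSP5 (2.01) and DUSP4 (1.25) rose, and EGFR (-1.11) and LRIG1 (-2.20), which restrains ERBB receptors, fell. The IGF axis, 3 higher and 5 lower of 9 (median -0.48), had the binding protein gene IGFBP3 (4.26), IGF1R (0.59) and IRS1 (0.61) higher and IGF2R (-1.52) lower.

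AP-1 and immediate early genes, transcription factors and their early partners that answer growth and stress signals, had no tested member called lower. Another 9 members lay below the filter and were not tested, FOS, FOSB, FOSL1, EGR1, EGR2 and EGR3 among them. Of 19 tested, 16 were higher and 0 lower (7 at least 2-fold higher and 0 at least 2-fold lower), median 0.73 against -0.15 for all genes, and 0.88 after median-ratio scaling. FOSL2, a FOS-related AP-1 subunit, measured 4.18, 3.58 and 3.65 FPKM in the controls and 20.8, 21.5 and 21.4 FPKM after shFOXA1 (2.21 ± 0.0549 SE, limma adjusted p = 1.4e-08). JUNB (1.24), JUN (1.04), IER5 (1.39), KLF4 (1.27) and the antiproliferative BTG1 (1.36) and BTG2 (1.24) rose 2-fold or more. The AP-1 letters TGANTCA stood in 8.45% of promoters of genes 2-fold higher, in 3.63% of those 2-fold lower and in 3.95% of tested genes, against 7.76% of all RefSeq promoters.

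Epithelial junction and matrix genes tended upward, with exceptions among desmosome genes. Of 33 keratin, claudin and desmosome genes, 18 were higher and 7 lower (median 0.20). CLDN4, a tight junction claudin, measured 121, 121 and 119.5 FPKM in the controls and 279, 309 and 295.3 FPKM after shFOXA1 (1.28 ± 0.0434 SE, limma adjusted p = 5.7e-08), and the basal keratins KRT15 (1.10) and KRT14 (0.95) rose from low levels. The desmosomal DSC2 (-1.77) and DSG2 (-1.15) and PERP (-1.92), a desmosomal p53 target, fell. CDH1 (E-cadherin) measured 157, 148 and 149 FPKM in the controls and 309, 312 and 305 FPKM after shFOXA1 (1.02 ± 0.0364 SE, limma adjusted p = 7.2e-08). The epithelial-mesenchymal switch list, 4 higher and 6 lower of 13, had a median of -0.09 that became 0.03 after median-ratio scaling. Its other 18 members lay below the filter and were not tested. VIM was lower (-0.36) but passed the filter only through the control. Without VIM, 4 were higher and 5 lower of 12 (median -0.03). Matrix and integrin genes gave 15 higher and 4 lower of 24 (median 0.26), with the laminin LAMA3 (1.36), the collagen COL6A1 (1.20) and agrin (AGRN, 1.19) higher and the integrins ITGA5 (-1.19) and ITGA6 (-1.25) lower. Neuroendocrine and neuronal genes were mostly unmeasured, 24 of 30 below the filter. Of the 6 tested, 4 were higher and 2 lower (median 0.46), with TUBB3 (1.64) and SYT4 (1.46) higher and DDC (-3.80), an amino acid decarboxylase, and ENO2 (-1.05) lower. Without the 2 members that passed the filter through 1 group alone, DDC among them, 3 were higher and 1 lower of 4 (median 0.82).

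Cell division genes were lower in large numbers. Of 46 spindle checkpoint and kinetochore genes tested, 1 was higher and 42 lower (0 at least 2-fold higher and 37 at least 2-fold lower), with a median of -2.19 (-2.10 after median-ratio scaling). The filter fixed the direction of 17 members, which reached 1 FPKM only in the controls. Of the other 29, 25 were lower and 1 was higher, with a median of -1.83. CDC20, which switches on the anaphase-promoting complex, measured 47.2, 48.5 and 44.3 FPKM in the controls and 2.28, 3.11 and 2.21 FPKM after shFOXA1 (-3.76 ± 0.0923 SE, limma adjusted p = 1.4e-08). The mitotic kinase PLK1 measured 33.3, 34.9 and 31.0 FPKM in the controls and 2.60, 2.67 and 2.25 FPKM after shFOXA1 (-3.28 ± 0.0626 SE, limma adjusted p = 5.2e-09). CCNB2, a mitotic cyclin, measured 28.2, 29.9 and 28.1 FPKM in the controls and 1.85, 2.29 and 2.35 FPKM after shFOXA1 (-3.24 ± 0.0678 SE, limma adjusted p = 7.1e-09). In each case the lowest control lay at least 10 FPKM above the highest knockdown sample. BUB1 (-3.45), AURKB (-3.30), NDC80 (-3.25) and the centromere histone CENPA (-2.82) fell alike, and CENPN (0.34) was the 1 member called higher. In bulk RNA, fewer dividing cells and less of these RNAs per cell cannot be told apart.

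Promoter letters, which the choice of members did not use, were counted in these lists. The CHR element TTTGAA is bound by the MuvB complex, which represses such genes in resting cells and activates them in mitosis, and CCAAT boxes bind NF-Y. TTTGAA stood in 44.7% of the 38 spindle list promoters with a RefSeq entry, against 18.0% of all genes 2-fold lower, 9.23% of tested genes and 15.4% of all promoters in the table, and in 4.08% of the replication list described next. For CCAAT the shares were 68.4%, 42.7%, 37.9% and 35.7%, with 55.1% in the replication list. CCAAT stood in 52.9% of AP-1 list promoters, 47.4% of androgen-induced and 33.9% of cytosolic ribosomal protein ones. It was thus not particular to the spindle list. In the replication list (49 promoters) the E2F letters TTTCCCGC and TTTGGCGC stood in 22.4% and 14.3%, against 2.72% and 1.16% of tested genes. The 250 bases before the RefSeq start (GRCh38.p14) of CDC20, CCNB2, PLK1 and E2F1 are shown with these letters in capitals, on both strands: TTTGAA and CCAAT in CDC20, CCNB2 and PLK1, and the E2F letters in E2F1.
CDC20, chr1:43358731-43358980, plus strand: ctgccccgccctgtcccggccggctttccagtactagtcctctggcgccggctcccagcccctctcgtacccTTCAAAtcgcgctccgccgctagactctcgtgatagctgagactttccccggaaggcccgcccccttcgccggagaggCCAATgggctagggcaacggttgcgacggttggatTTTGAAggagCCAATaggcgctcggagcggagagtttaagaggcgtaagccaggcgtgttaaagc
CCNB2, chr15:59104896-59105145, plus strand: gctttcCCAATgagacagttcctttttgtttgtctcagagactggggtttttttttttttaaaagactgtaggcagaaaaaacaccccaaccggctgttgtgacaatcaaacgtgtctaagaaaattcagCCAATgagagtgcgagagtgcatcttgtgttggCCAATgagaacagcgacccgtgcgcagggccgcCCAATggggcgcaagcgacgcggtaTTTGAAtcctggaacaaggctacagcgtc
PLK1, chr16:23678639-23678888, plus strand: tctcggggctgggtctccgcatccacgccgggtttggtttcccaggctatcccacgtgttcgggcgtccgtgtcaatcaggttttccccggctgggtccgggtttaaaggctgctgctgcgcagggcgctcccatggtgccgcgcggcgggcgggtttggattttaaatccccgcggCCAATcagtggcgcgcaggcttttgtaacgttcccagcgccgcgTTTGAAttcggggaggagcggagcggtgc
E2F1, chr20:33686386-33686635, minus strand: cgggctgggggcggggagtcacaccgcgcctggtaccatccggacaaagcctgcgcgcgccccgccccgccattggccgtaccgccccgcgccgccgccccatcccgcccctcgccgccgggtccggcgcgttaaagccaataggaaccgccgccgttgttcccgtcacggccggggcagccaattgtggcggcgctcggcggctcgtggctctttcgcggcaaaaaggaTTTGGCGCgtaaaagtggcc
In CCNB2 and PLK1 the CHR letters begin 29 bases before the start, with the nearest CCAAT box at -54 and -73, and CCNB2 holds further ones at -87, -120 and -244. In CDC20 they begin at -65 and -178, with CCAAT boxes at -100 and -55, and E2F1 carries TTTGGCGC at -20. A match is a description of letters and not a measured binding site.

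The rest of the cell cycle machinery followed. Of 55 DNA replication and nucleotide supply genes, 1 was higher and 53 lower (0 at least 2-fold higher and 44 at least 2-fold lower), median -1.61. RRM2, the ribonucleotide reductase subunit made in S phase, measured 31.2, 33.4 and 31.0 FPKM in the controls and 1.70, 2.08 and 1.84 FPKM after shFOXA1 (-3.52 ± 0.0584 SE, limma adjusted p = 3.2e-09), and the helicase loader CDC6 (-2.60), CDC45 (-3.00), MCM2 (-2.45) and TK1 (-2.89) fell. Among E2F, RB and MuvB regulators, 3 were higher and 15 lower of 21 (median -0.50). The activators MYBL2 (-3.47) and E2F1 (-2.70) fell, and the repressor E2F4 (0.39), DYRK1A (0.55), the kinase that promotes assembly of the repressive complex, and LIN37 (0.48) rose. Cyclins and cyclin-dependent kinases gave 9 higher and 24 lower of 38 (median -0.40). The mitotic and S phase members CCNB1 (-3.31), CCNB2 (-3.24), CCNA2 (-2.80) and CDK1 (-2.79) fell most. CCND1 fell too (-1.46), and the splicing-linked CCNL2 (1.21) and CDK11A (1.67) rose, the latter having a near-identical copy in CDK11B.

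CDK inhibitors split by member. CDKN2B, which encodes p15 and blocks CDK4 and CDK6, measured 0.334, 0.550 and 0.384 FPKM in the controls and 14.1, 14.3 and 16.2 FPKM after shFOXA1 (3.48), and passed the filter only through shFOXA1. CDKN1A, which encodes p21, measured 94.2, 90.2 and 95.8 FPKM in the controls and 563, 579.5 and 569 FPKM after shFOXA1 (2.60 ± 0.0371 SE, limma adjusted p = 2.4e-09), and CDKN1C rose too (1.68). The neighbour of CDKN2B on chromosome 9, CDKN2A, fell (-1.29), as did CDKN2C (-1.93) and CDKN3 (-3.35), a phosphatase made in mitosis. In all, 3 were higher and 5 lower of 8. CDKN1C, like CDKN2B, passed the filter only through shFOXA1, so the filter fixed the direction of both. Without these 2 members, 1 was higher and 5 lower of 6. Among p53 and its targets, 22 were higher and 4 lower of 35 (median 0.31): GADD45A (1.24), the apoptosis gene BBC3 (1.16), FAS (1.09) and SESN2 (1.09) rose, PERP, which encodes a desmosome protein, fell, and MDM2 stood at 0.13. Replication-dependent histone genes, whose transcripts normally end without a poly(A) tail, went against the replication genes, 20 higher and 7 lower of 31 (median 0.62). On chromosome 6, 7 neighbouring histone genes from HIST1H2BD to HIST1H2BG were each at least 2-fold higher, HIST1H4D most (2.25), while HIST1H4C (-0.97) and HIST1H3A (-1.12) fell. Histone copies can share reads, and the share of reads from RNA with a tail was not tested.

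The regulators named in the title of the series changed as RNA in this knockdown as well. BUB3 fell from 36.3 ± 2.34 to 15.6 ± 0.639 FPKM and EZH2, the catalytic subunit of polycomb complex PRC2, from 12.6 ± 0.265 to 5.87 ± 0.429 FPKM (SD, n = 3 per group), differences of -1.17 and -0.98. USP7 changed less (-0.35). The polycomb list gave 14 higher and 17 lower of 39, and its median of -0.06 became 0.08 after median-ratio scaling. CBX6 (-1.63) and ASXL2 (-1.16) fell 2-fold, SUZ12 fell less (-0.42), and PHF1 (1.04) and EZH1 (0.37), a paralogue of EZH2 used in resting cells, rose. Deubiquitinases were split, 21 higher and 21 lower of 50 (median 0.04), with the proteasome-bound UCHL5 lowest (-1.25) and USP54 highest (1.01).

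The protein synthesis machinery was lower as a block. All 77 cytosolic ribosomal protein genes tested were called lower on both scales, against 50.0% of all genes on the deposited scale. Their median was -0.89 (-0.73 after median-ratio scaling), with a range of -1.64 to -0.40. RPS6, a subunit of the small particle, measured 1348, 1381 and 1287 FPKM in the controls and 584, 616 and 640.0 FPKM after shFOXA1 (-1.13 ± 0.0502 SE, limma adjusted p = 2.3e-07), and RPL27A (-1.64) and RPS15A (-1.62) fell most. Summed over the list, the level went from 48274 ± 1829.9 to 25928 ± 508 FPKM (SD, n = 3 per group), or from 17.1% to 10.8% of all FPKM. These genes are short, and pseudogene copies may take some of their reads. With all genes in 4 bins by length, the shortest had a median of -0.19 and the others -0.16, -0.13 and -0.15. Mitochondrial ribosomal proteins gave 1 higher and 66 lower of 73 (median -0.52, MRPL11 lowest at -1.84). For proteasome subunits the split was 2 higher and 34 lower of 41 (median -0.48) and for nuclear-encoded respiratory chain subunits 6 higher and 46 lower of 74 (median -0.26), the last at -0.11 after median-ratio scaling.

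Chaperones moved in both directions. The small heat-shock protein HSPB8, which hands misfolded clients to autophagy, measured 2.04, 2.55 and 2.37 FPKM in the controls and 18.7, 20.8 and 20.3 FPKM after shFOXA1 (2.66 ± 0.0678 SE, limma adjusted p = 1.7e-08), and another of this family, CRYAB, rose further (5.49). Of the other small heat-shock genes tested, HSPB1 was higher (0.81) and HSPB11 lower (-0.88). The stress-induced HSPA1B (1.27), DNAJB1 (1.14) and HSPH1 (0.70) rose. HSP90AA1 measured 326, 342 and 312 FPKM in the controls and 633, 667 and 735 FPKM after shFOXA1 (1.05 ± 0.0626 SE, limma adjusted p = 1.2e-06), the highest control mean of the named genes past 2-fold higher. Subunits of the CCT chaperonin, which folds actin and tubulin, fell by less than 2-fold, such as CCT7 (-0.88), CCT4 (-0.83) and CCT5 (-0.72). The whole list gave 15 higher and 21 lower of 40 (median -0.22). The ER folding and unfolded protein response list was lower, 4 higher and 20 lower of 29 (median -0.34), with PDIA6 (-1.46), DNAJC3 (-1.39) and HSP90B1 (-0.80) lower and DNAJB9 (1.36) higher. Genes of the ATF4 pathway, serine synthesis and tRNA charging gave 4 higher and 26 lower of 35 (median -0.55). Within it the serine and one-carbon enzymes PHGDH (-1.61), MTHFD2 (-1.58) and SHMT2 (-1.28) and the transporter SLC1A5 (-2.32) fell, whereas the stress genes CHAC1 (1.91), DDIT3 (1.23) and SESN2 (1.09) rose.

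Lysosomal genes moved the other way from the ribosome. Of 42 tested, 24 were higher and 16 lower (median 0.27, 0.43 after median-ratio scaling). The cholesterol exporter NPC1 measured 44.6, 40.2 and 44.2 FPKM in the controls and 182, 180.0 and 181 FPKM after shFOXA1 (2.05 ± 0.0452 SE, limma adjusted p = 8.7e-09), and the protease CTSD measured 134, 132 and 126 FPKM in the controls and 314, 332 and 328 FPKM after shFOXA1 (1.31 ± 0.0398 SE, limma adjusted p = 3.4e-08). TFEB, the transcription factor that drives lysosome biogenesis, rose (1.93), and NAGLU (-1.13) and PPT1 (-1.11) fell.

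Lipid and sugar metabolism lists held more members called lower than higher. SCD, the desaturase that makes monounsaturated fatty acids, measured 241, 216 and 231 FPKM in the controls and 33.4, 34.2 and 32.9 FPKM after shFOXA1 (-2.74 ± 0.0454 SE, limma adjusted p = 3.2e-09), and FADS1 (-2.43) and ELOVL6 (-2.10) fell more than 2-fold, whereas SCD5 rose (1.53). Fatty acid synthesis and desaturation gave 5 higher and 18 lower of 26 (median -0.38), and cholesterol synthesis 3 higher and 18 lower of 25 (median -0.45), with PMVK (-1.96), EBP (-1.79) and INSIG1 (-1.41) lower. In the glycolysis and hypoxia list, 7 were higher and 23 lower of 34 (median -0.39): LDHB (-2.17), PFKP (-1.76), HK2 (-1.60) and LDHA (-1.16) fell, and VEGFA rose (1.27). Polyamine, creatine and zinc genes gave 4 higher and 20 lower of 29 (median -0.35). The zinc transporter SLC30A4 (-1.76), the metallothionein MT1X (-1.63) and the polyamine enzymes SMS (-1.25) and ODC1 (-0.67) were lower. Over all genes 50.0% were called lower on this scale. After median-ratio scaling the members lower were 15 of 26 for fatty acid synthesis, 14 of 25 for cholesterol synthesis, 20 of 34 for glycolysis and 19 of 29 for the polyamine list.

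Inflammatory and NF-kB genes were mostly higher, 16 higher and 3 lower of 22 tested (median 0.31), beside 28.9% of all genes called higher. Without the 5 members that passed the filter through 1 group alone, 11 of 17 were higher (median 0.19). IL32, an inflammatory cytokine, measured 1.63, 1.88 and 1.50 FPKM in the controls and 14.5, 16.0 and 16.0 FPKM after shFOXA1 (2.63 ± 0.0670 SE, limma adjusted p = 1.6e-08). The pathway's own inhibitors and targets NFKBIZ (1.57), NFKBIA (1.45) and BIRC3 (1.19) rose, and SOD2 fell (-1.11). Interferon-induced and MHC class I genes gave 18 higher and 9 lower of 37 (median 0.15), with IRF7 (1.43) and OASL (1.11) higher and OAS3 (-1.50) and B2M (-0.65) lower. Without the 8 members that passed the filter through 1 group alone, OASL and OAS3 among them, 15 were higher and 4 lower of 29 (median 0.16).

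**Figure D3:**
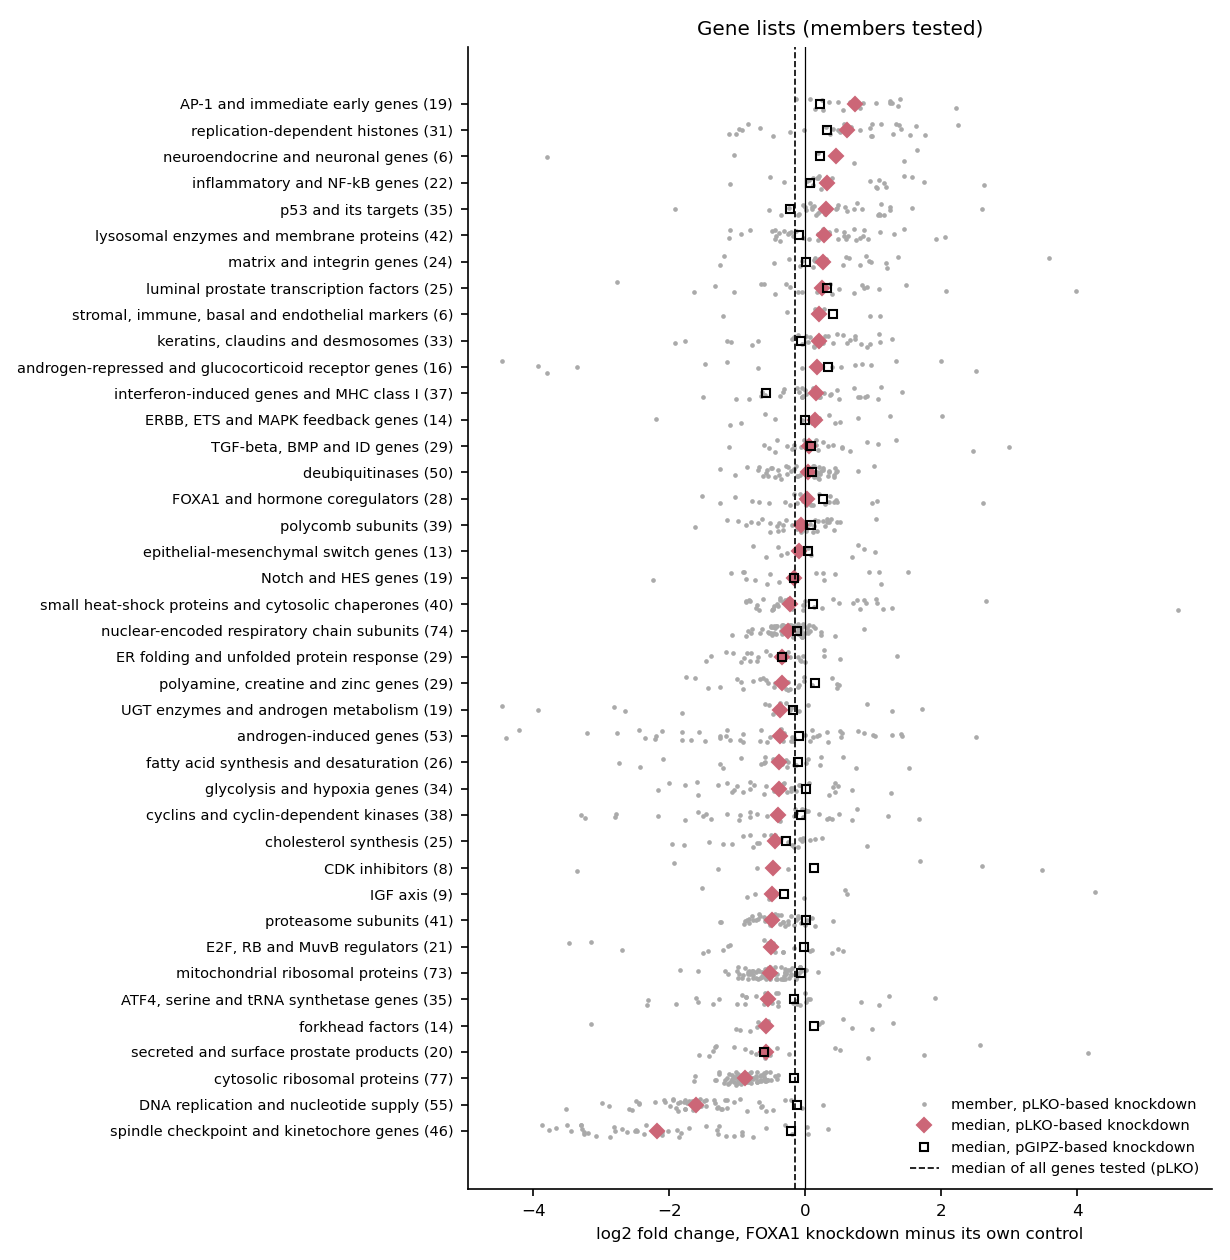
Log2 fold changes on the x axis for the lists with at least 6 tested members (number in parentheses), with grey points for members and red diamonds for medians in shFOXA1 minus pLKO control, open squares for medians in the pGIPZ-based knockdown and a dashed line for the median of all genes, -0.15. The spindle and replication lists lie lowest at -2.19 and -1.61, with pGIPZ medians of -0.22 and -0.13, and AP-1 genes lie highest at 0.73.

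The second FOXA1 knockdown has its own controls and its own table, in RPKM, which like FPKM scales by length and library total. Since each table carries its own normalization, tests stay inside a table. There FOXA1 fell from 132 ± 2.38 to 82.5 ± 1.87 RPKM (SD, n = 3 per group), -0.67 ± 0.0283 (SE, limma adjusted p = 1.6e-06), less than in the pLKO experiment. limma called 2932 of 12097 genes higher there (24.2%) and 2846 lower (23.5%); 2.03% were at least 2-fold higher and 0.959% at least 2-fold lower. Among the 11625 genes tested in both, 488 were 2-fold higher after shFOXA1 and 196 in the pGIPZ knockdown, and 100 in both, 20.5% of the first and 51.0% of the second. For 2-fold lower genes the numbers were 1082, 94 and 36, or 3.33% and 38.3%. The 488 genes had a pGIPZ median of 0.33, and 287 of them were called higher there and 63 lower. The 1082 genes had a pGIPZ median of -0.23, with 608 called lower and 61 higher. Across genes the fold changes correlated at r = 0.419 and rho = 0.379, as a description.

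Of the genes set side by side here, IRX3, THBS1, NPPC, SGK1, FOSL2 and ID2 were chosen for their rises in both knockdowns. In the pGIPZ knockdown and after shFOXA1 in turn, IRX3 stood at 3.34 and 3.29, the thrombospondin gene THBS1 at 2.94 and 3.58, NPPC at 3.12 and 3.33, SGK1 at 3.22 and 2.51, FOSL2 at 2.44 and 2.21, ID2 at 2.23 and 2.99 and TLE1 at 1.94 and 2.62. In the pGIPZ knockdown SLC45A3 (-1.79), which encodes prostein, DDC (-1.82), RLN1 (-2.51), ACPP (-1.70) and the extracellular SPON2 (-1.50) fell. These too were chosen with the values of both knockdowns known, so their shared direction lends no separate support. ACPP, SPON2 and RLN1 had changes of at least 1.4 in size in both experiments. Several differences were smaller in size in the pGIPZ knockdown. SORD stood at -0.54 there against -3.21 and UGT2B11 at -0.61 against -2.82. The medians there were -0.22 for spindle genes, -0.13 for replication genes and -0.17 for ribosomal proteins. CDKN1A was -0.26 ± 0.0267 (SE, limma adjusted p = 1.5e-04), opposite to its rise after shFOXA1, and the p53 list gave 4 higher and 19 lower of 35 tested (median -0.22). Interferon-induced genes gave 0 higher and 37 lower of 46 (median -0.57). Secreted prostate products had a median of -0.60 there and -0.59 after shFOXA1, and ER folding genes -0.35 and -0.34, where the medians of all genes were 0.0025 and -0.15. These differences between experiments were not tested, and the vector, the table and the remaining FOXA1 level differ between them.

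**Figure D4:**
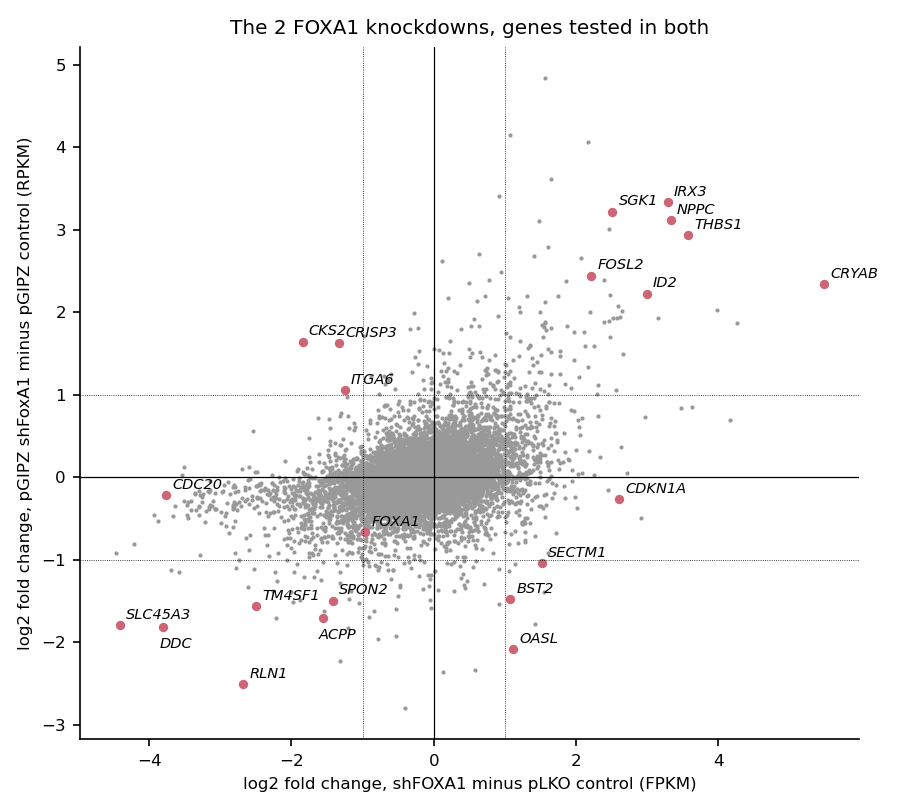
Each point is 1 of 11625 genes tested in both FOXA1 knockdowns, with the log2 fold change of shFOXA1 minus pLKO control on the x axis and of pGIPZ shFoxA1 minus pGIPZ control on the y axis; dotted lines mark 2-fold. IRX3, THBS1 and ID2 lie high in both and RLN1 and SLC45A3 low in both, while CDC20 lies at -3.76 and -0.22 and CDKN1A at 2.60 and -0.26.

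The 3 shFOXA1 samples were also tested directly against the shUSP7 and shBUB3 samples of the same experiment. These contrasts reuse the shFOXA1 samples, so they are set beside the main comparison as values. Against shUSP7, 669 of 11900 genes were 2-fold higher (5.62%) and 916 lower (7.7%). Against shBUB3, 737 of 11823 were 2-fold higher (6.23%) and 1224 lower (10.4%), and the third shBUB3 sample had the highest FPKM sum of the experiment (367614).

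Cell division genes were low in all 3 knockdowns. CDC20 averaged 3.31 ± 0.366 FPKM in shUSP7, 1.92 ± 0.321 in shBUB3 and 2.53 ± 0.501 in shFOXA1, against 46.7 ± 2.14 in the control (SD, n = 3 each). The direct differences were -0.29 (limma adjusted p = 0.0358) and 0.27 (adjusted p = 0.0952). The spindle list had medians of -0.26 against shUSP7 and -0.00470 against shBUB3, over the 33 and 28 members that passed the filter there, fewer than the 46 of the main comparison. CDKN1A averaged 904 ± 14.5 FPKM in shUSP7 and 719 ± 51.8 in shBUB3, above the 571 ± 8.15 of shFOXA1. Low mitotic RNAs and high CDKN1A were thus measured after each of the 3 infections with a hairpin to a gene.

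Other members did differ from both knockdowns. IRX3 was higher than in shUSP7 by 1.73 (limma adjusted p = 1.1e-08) and than in shBUB3 by 2.34 (adjusted p = 3.0e-06). CDKN2B averaged 1.71 ± 0.172 FPKM in shUSP7 and 0.411 ± 0.0972 in shBUB3, against 14.9 ± 1.13 in shFOXA1. UGT2B11 averaged 121 ± 4.48 FPKM in shUSP7 and 145 ± 1.81 in shBUB3, both above the control, so the direct differences of -3.62 and -3.89 were larger than that from pLKO. PEG3, an imprinted zinc-finger gene that fell to 2.26 ± 0.165 from 41.0 ± 1.99 FPKM, was lower than in shUSP7 and shBUB3 as well (-2.67 and -2.37). Ribosomal proteins were lower than in both, with medians of -0.84 and -1.26, and the androgen-induced list had medians of -0.07 and 0.19. Among the largest rises, HSPB8 (3.38 and 1.81), SOX9 (2.32 and 2.72), ID2 (1.50 and 2.86) and ENC1 (2.15 and 2.53) exceeded shUSP7 and shBUB3 alike, whereas NPC1 stood 0.23 from shBUB3 (adjusted p = 0.142).

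**Figure D5:**
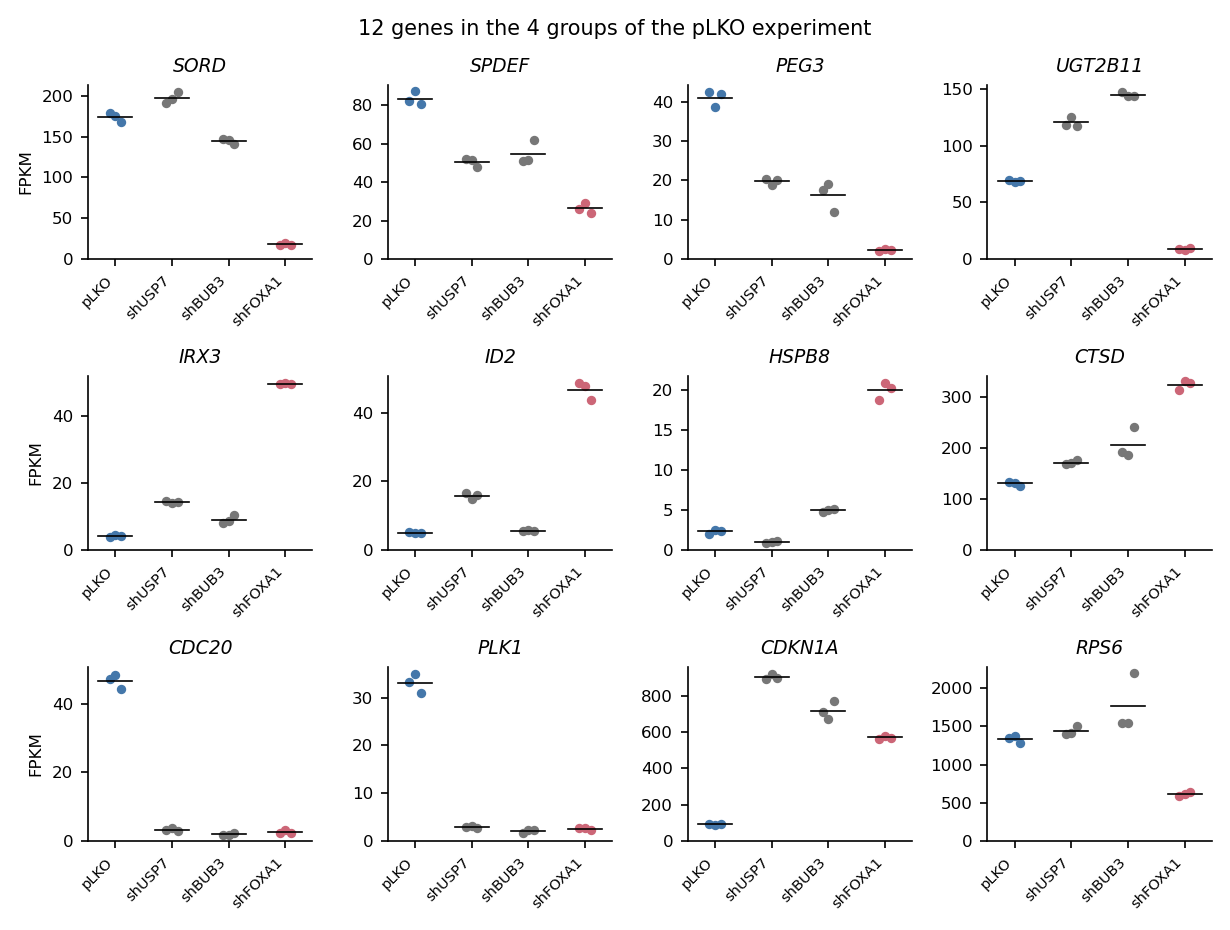
FPKM on linear axes from 0 for 12 genes in the 4 groups of the pLKO experiment, with 1 point per sample (n = 3 per group) and lines for group means. IRX3, ID2, HSPB8 and CTSD are highest and UGT2B11, PEG3 and RPS6 lowest in shFOXA1, while CDC20 and PLK1 are low and CDKN1A is high in all 3 knockdowns.

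Luminal identity of the samples was checked on fixed markers. KLK3 stood at 1088 ± 3.16 and 761 ± 19.3 FPKM, TMPRSS2 at 210.3 ± 3.15 and 238 ± 8.60, KLK2 at 112 ± 0.679 and 98.7 ± 4.10 and KRT8 at 150.4 ± 7.72 and 221 ± 8.86 in control and knockdown. These markers remained measurable at this level while many secreted products described above were lower. Of the 29 stromal, immune, basal and endothelial markers, 23 lay below the filter and 4 of them read 0 in all 6 samples. Of the 6 tested, 3 were higher and 2 lower, among them KRT14, KRT15 and VWF (-1.22). Their summed level was 14.2 to 15.4 FPKM in the controls and 16.4 to 17.8 FPKM after shFOXA1.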

How the data were processed

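RNA was sequenced from LNCaP samples. For the pLKO experiment the authors deposited FPKM and for the pGIPZ experiment RPKM; the submitters' processing notes name STAR and hg38, and the counter and annotation were not given in the sources used here. Of 26475 rows, 32 had no values and were left out. Fold changes were fitted on log2(value + 1) with limma 3.58.1 (R 4.3.3; mean-variance trend, two-sided, Benjamini-Hochberg over all genes tested), each comparison on its own 6 samples, and genes that reached 1 in 3 or more of them were tested. On simulated data for shFOXA1 against pLKO control (11737 genes), 98 of 100 genes changed by 1 on the log2 scale and 99 of 100 changed by 2 were called, and 10 of 11537 unchanged ones. The changed genes were drawn from those with a control mean above 2 on the log2(value + 1) scale. These rates therefore do not cover genes of lower level, or data in which most genes differ. Members, 41 gene lists and named genes (the 20 largest changes each way, the most abundant 2-fold changes, up to 6 called members per list, and genes with the same or opposite calls in both knockdowns) were chosen with earlier results of these data known; other genes in the text were chosen after their values were seen. A few genes are not reported here. Positions are from GENCODE 29, promoters from RefSeq GRCh38.p14. Alternatives were a pseudocount of 0.1, no filter, a mean of at least 5, median-ratio scaling, 4 groups sharing the spread, a replicate block, no trend and leaving out each sample.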

Additional observations from a re-analysis of the deposited data

Results flagged for a closer look

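In 10 genes every sample of one FOXA1 knockdown moved one way from its controls and every sample of the other knockdown the opposite way, each by at least 2-fold on the log2(value + 1) scale. The difference between the knockdowns was not tested, since the tables were normalized separately. Values in parentheses are log2 fold changes, first for shFOXA1 minus pLKO control and then for pGIPZ shFoxA1 minus pGIPZ control. The interferon-induced OASL (1.11 and -2.09), BST2 (1.07 and -1.47) and RARRES3 (1.42 and -1.78), the surface protein SECTM1 (1.51 and -1.04), the cytokine TNFSF15 (1.05 and -1.13) and the laminin receptor BCAM (1.14 and -1.05) rose after shFOXA1 and fell in the pGIPZ knockdown. MIR29B2 (1.55 and -1.40) did so too, where reads over the short precursor may come from its host transcript. The cyclin-dependent kinase subunit CKS2 (-1.84 and 1.64), the integrin ITGA6 (-1.25 and 1.06) and the secreted protein CRISP3 (-1.33 and 1.62) fell after shFOXA1 and rose in the other. Groups of 3 samples are too small for a check of single outlying samples.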

How the results depend on the processing

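Across 13 alternatives per comparison, 201 of 208 counts stayed within 1.5 times the reported one. A minimum mean of 5, which tests fewer genes, gave 4030 genes lower and 705 at least 2-fold lower in shFOXA1 against pLKO control, and 403, 449 and 136 at least 2-fold higher against shUSP7, against shBUB3 and in the pGIPZ knockdown. A pseudocount of 0.1 gave 1020 genes at least 2-fold higher against shUSP7 and 218 at least 2-fold lower in the pGIPZ knockdown. Leaving out 1 sample at a time, the genes called were 9133 to 9354 for shFOXA1 against pLKO control, 9104 to 9334 against shUSP7, 7159 to 9372 against shBUB3 (the highest without the third shBUB3 sample) and 5053 to 5380 in the pGIPZ knockdown. Of 3558 pairs of a named gene and an alternative, 3547 kept direction and call, 11 lost the call (CD68, ACTA2 and REST) and 0 reversed. List medians changed sign in 7 of 41 lists, all with medians within 0.18 of 0, under at least 1 alternative, among them coregulators, epithelial-mesenchymal, Notch, ERBB, polycomb and deubiquitinases.

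Replicate numbers are shared between groups, but samples with the same number did not deviate together (r of -0.0261, 0.0447 and -0.0467; 1 of 3 correlated best with its own number). With a replicate block, 9396 genes were called in place of 9554, with 529 and 1109 past 2-fold; no call of a named gene changed. The files give no read totals, so counting error could not be computed, and differences of genes near 1 FPKM are the least certain.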

Other observations

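Genes that changed at least 2-fold in the same direction lay side by side in 29 runs of 3 or more neighbouring tested genes, chosen after their values were seen and given as a description. On chromosome 1 (GRCh38), from 205597556 to 206204414, 6 neighbours were lower after shFOXA1: ELK4 (-2.01), SLC45A3 (-4.41), NUCKS1 (-2.37), RAB29 (-2.53), SLC41A1 (-1.58) and FAM72A (-1.29). ELK4, an ETS factor, lies next to SLC45A3, and transcripts that run from one into the other are known in prostate cells, so reads near their border may be shared. On chromosome 19, PGLYRP2 (1.48), CYP4F8 (3.15) and CYP4F12 (1.36) were higher together. On chromosome 2, 3 genes of the interleukin-1 family were higher from low levels: IL36RN (1.21), IL1F10 (1.79) and IL1RN (1.65), each encoding an antagonist or a regulatory cytokine. IL1RN went from 2.85 ± 0.197 to 11.1 ± 1.16 FPKM (SD, n = 3 per group). The rows for the neighbouring microRNA genes MIR200B (1.53), MIR200A (1.65) and MIR429 (1.85) on chromosome 1 were higher too, where reads over short precursors may come from their host transcript.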
